A study of Ovis aries with 16 samples.

Results

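The core circadian clock genes were described in liver and skeletal muscle of adult female sheep exposed to bisphenol A (BPA) before birth. The members were 10 genes chosen by symbol: the activators ARNTL (also named BMAL1) and CLOCK, the repressors PER1, PER2, PER3, CRY1, CRY2, NR1D1 and NR1D2, and the output gene DBP. All 10 were present among the 28524 genes of the deposited table. The 4 groups were liver from BPA-exposed sheep, liver from control sheep, vastus lateralis muscle from BPA-exposed sheep and vastus lateralis muscle from control sheep, with 4 libraries in each and both tissues taken from each of 8 Suffolk sheep. Mothers of the BPA groups received 0.5 mg/kg BPA, a plasticizer with oestrogen-like activity, by daily subcutaneous injection over gestational days 30 to 90, and mothers of the control groups received the corn oil vehicle on the same days. All offspring were about 21 months old, had fasted for 48 hours, and had their oestrous cycle synchronized with prostaglandin F2α before collection in the late follicular phase. The hour of day at which tissue was taken is not given in the sources used here.

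The mammalian clock is a feedback loop of transcription that completes a turn in about a day in nearly every tissue. The proteins of ARNTL and CLOCK (or its relative NPAS2) pair on E-box elements and switch on the PER and CRY genes, whose proteins then block that pair. NR1D1 and NR1D2 (REV-ERBα and REV-ERBβ) are switched on by the same pair and repress ARNTL, so that ARNTL and its E-box targets peak at opposite times of day in mouse tissues. In liver this loop times glucose, lipid and bile acid metabolism, and its phase there follows feeding as well as the brain's clock.

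The libraries differed in depth and, in liver, in the sums of marker genes. BPA livers held 4664209 to 17923942 recovered reads and control livers 4391896 to 19283871. BPA muscles held 15147803 to 26535259 reads and control muscles 16164635 to 28540671. The summed hepatocyte markers (7 of 8 genes present, none at 0 throughout a group) spanned 164094 to 1040579 normalized counts in BPA livers and 32505 to 1100487 in control livers, and reached at most 12041 in a muscle library. The control liver 902 stood apart: its hepatocyte sum was 32505, the lowest of the 8 livers, and its fibroblast and stellate sum (8 of 8 genes present) was 116717, compared with at most 7777 in any other liver. Summed ribosomal protein markers (8 of 8 present) were 25786, 3864, 4034 and 2731 in the BPA livers 910, 918, 977 and 984, and 13893, 25665, 27099 and 28978 in the control livers 902, 908, 924 and 928. Macrophage markers (6 of 8 present) summed to 864 to 5421 in BPA livers and 5848 to 8764 in control livers, and cholangiocyte markers (5 of 5 present) to 160 to 285 in BPA livers and 410 to 1257 in control livers. The BPA liver 910 thus lay with the controls 908, 924 and 928 in the hepatocyte and ribosomal protein sums and in depth, apart from the other BPA livers. Muscle fibre genes (6 of 7 present) summed to between 4621421 and 7095391 in the muscles and to at most 775 in the livers. The muscle fibre sums thus set liver apart from muscle in every library. The hepatocyte sum of the control liver 902 (32505) was nearer to the highest muscle (12041) than to the next lowest liver (164094).

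Prenatal BPA and control livers differed most, among the core clock genes, in ARNTL and the PER genes, and no member passed the threshold of an adjusted p of 0.05. With limma on log2(normalized count + 1), 0 of 10 members were called, against 0% of the 15689 genes tested. At an unadjusted p under 0.05 there were 2 of 10 members (ARNTL and PER3), against 18.1% of all genes. The BPA livers lay entirely above the controls for 1 of 10 members, against 3.63% of all genes. Estimates were above 0 for 8 of 10 members, against 49.3% of all genes. The median difference was 0.62 log2 over the members and -0.01 over all genes. With edgeR 0 were called and 3 had an unadjusted p under 0.05 (18.1% of all genes), and with DESeq2 0 were called (1.21% of all genes) and 4 had an unadjusted p under 0.05 (20.9%).

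**Figure D1:**
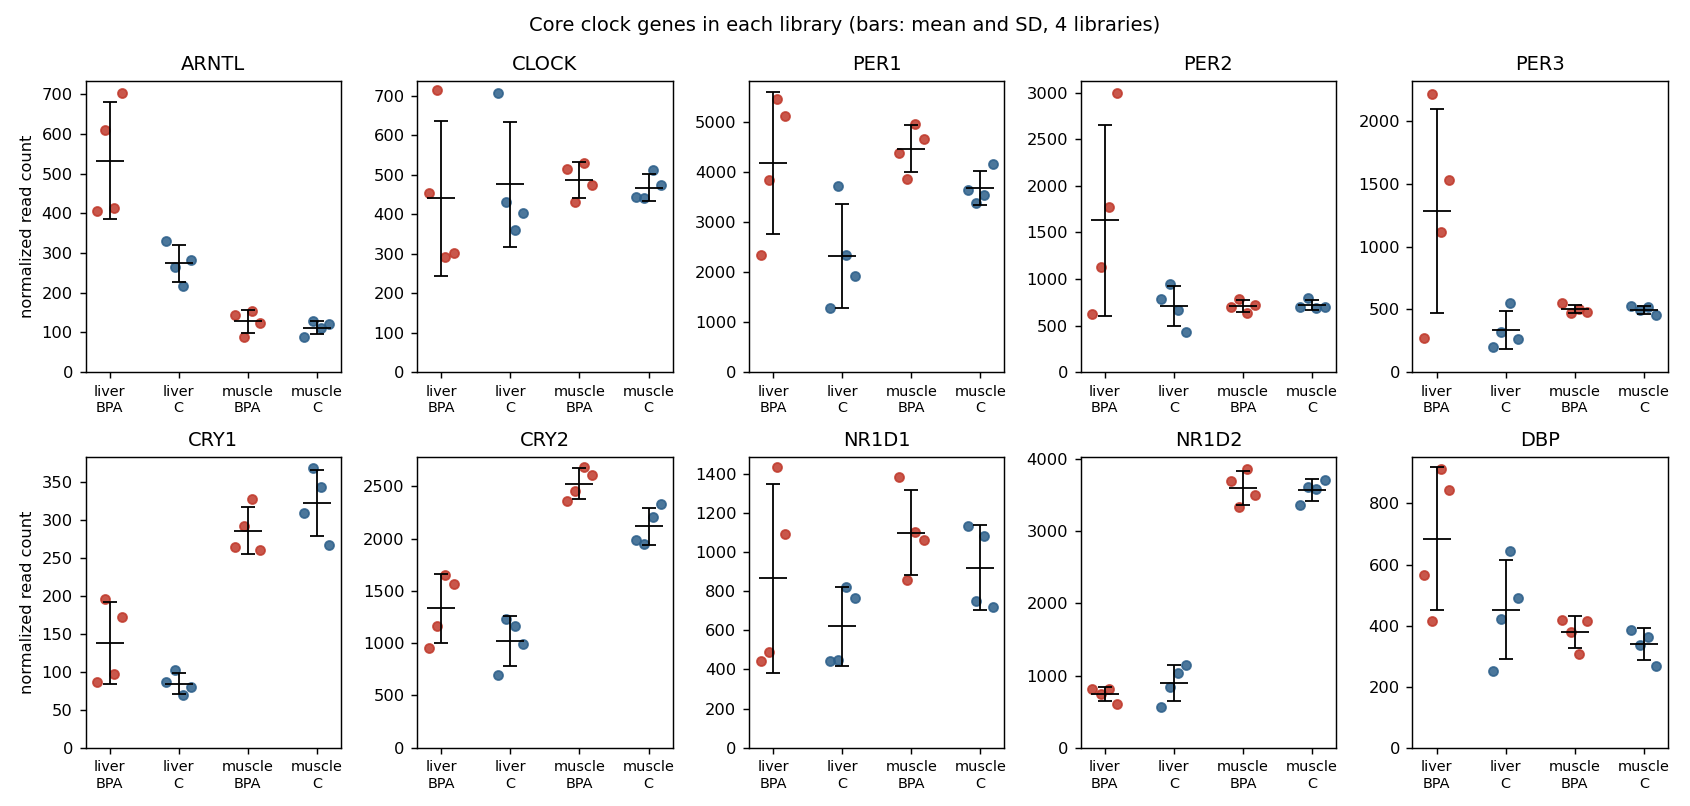
Normalized read counts of the 10 core clock genes (vertical axes, linear from 0) in each library of the 4 groups, with BPA in red and control in blue. Black bars give the mean and SD of 4 libraries. In liver, ARNTL lies above every control in all 4 BPA libraries, and PER3 lies above every control in 3 of them, with 1 BPA liver at 268. In muscle the groups overlap for every gene but CRY2.

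The activator ARNTL measured 406, 610, 414 and 703 normalized counts in the BPA livers 910, 918, 977 and 984, against 332, 264, 217 and 283 in the control livers 902, 908, 924 and 928. It was the 1 member whose groups did not overlap, and all 4 BPA livers lay above the highest control. Its difference was 0.93 log2 (SE 0.29), or 1.91-fold, with an adjusted p of 0.256 in limma, and its p ranked 451 among the 15689 genes. CLOCK, the partner of ARNTL, measured 454, 714, 292 and 302 in the BPA livers against 709, 431, 361 and 402 in the control livers. Its groups overlapped throughout, with BPA livers at both ends of the range and a difference of -0.16 log2 (SE 0.36, adjusted p 0.822). The estimates of the activator pair thus had opposite signs in liver.

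Of the PER genes, which encode rhythmic repressors, PER3 and PER2 had the widest differences of the members. PER3 measured 268, 2217, 1118 and 1534 in the BPA livers 910, 918, 977 and 984, against 200, 322, 552 and 265 in the control livers. The BPA livers 918, 977 and 984 stood above every control and the BPA liver 910 stood among them, giving a difference of 1.69 log2 (SE 0.62, adjusted p 0.256). PER2 measured 619, 1124, 1775 and 2999 in the BPA livers, against 780, 943, 665 and 432 in the control livers. The same 3 BPA livers were above every control and 910 was below 3 of them, with a difference of 1.03 log2 (SE 0.48, adjusted p 0.285). PER1, which also responds acutely to glucocorticoids in other mammals, measured 2330, 3833, 5452 and 5109 in the BPA livers, against 1279, 3716, 2345 and 1921 in the control livers. The BPA livers 918, 977 and 984 again exceeded every control and 910 was below 2 of them, with a difference of 0.88 log2 (SE 0.43, adjusted p 0.295).

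The cryptochromes, partners of the PER proteins in the repressor complex, and the REV-ERB genes differed less. CRY1, the stronger repressor of the pair in mouse cells, measured 86, 196, 97 and 172 in the BPA livers and 87, 102, 69 and 80 in the control livers. The BPA livers 918 and 984 stood above all others and the rest overlapped (0.63 log2, SE 0.34, adjusted p 0.332). CRY2 measured 950, 1164, 1650 and 1567 in the BPA livers and 693, 1234, 1167 and 989 in the control livers, a difference of 0.38 log2 (SE 0.31, adjusted p 0.495). NR1D1 was 445, 489, 1435 and 1093 in the BPA livers and 441, 451, 821 and 766 in the control livers (0.36 log2, SE 0.44, adjusted p 0.658). The BPA livers 977 and 984 were the highest of the 8 for both genes. NR1D2 measured 811, 743, 815 and 610 in the BPA livers and 571, 846, 1029 and 1140 in the control livers, a difference of -0.23 log2 (SE 0.30, adjusted p 0.675), with the control liver 902 lowest and the other controls above every BPA liver.

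DBP, a PAR bZIP factor that carries E-box rhythm on to metabolic genes, measured 567, 414, 914 and 844 in the BPA livers, against 253, 422, 643 and 489 in the control livers. The BPA livers 977 and 984 were again the highest, the BPA liver 918 was below 3 controls, and the difference was 0.61 log2 (SE 0.38, adjusted p 0.378). The members therefore did not follow 1 pattern across the BPA livers. In 918 the deviations from the mean of the 8 livers were largest in PER3, CRY1, CLOCK and ARNTL, whereas in 977 and 984 NR1D1 and DBP were also above the mean and CLOCK was below it.

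**Figure D2:**
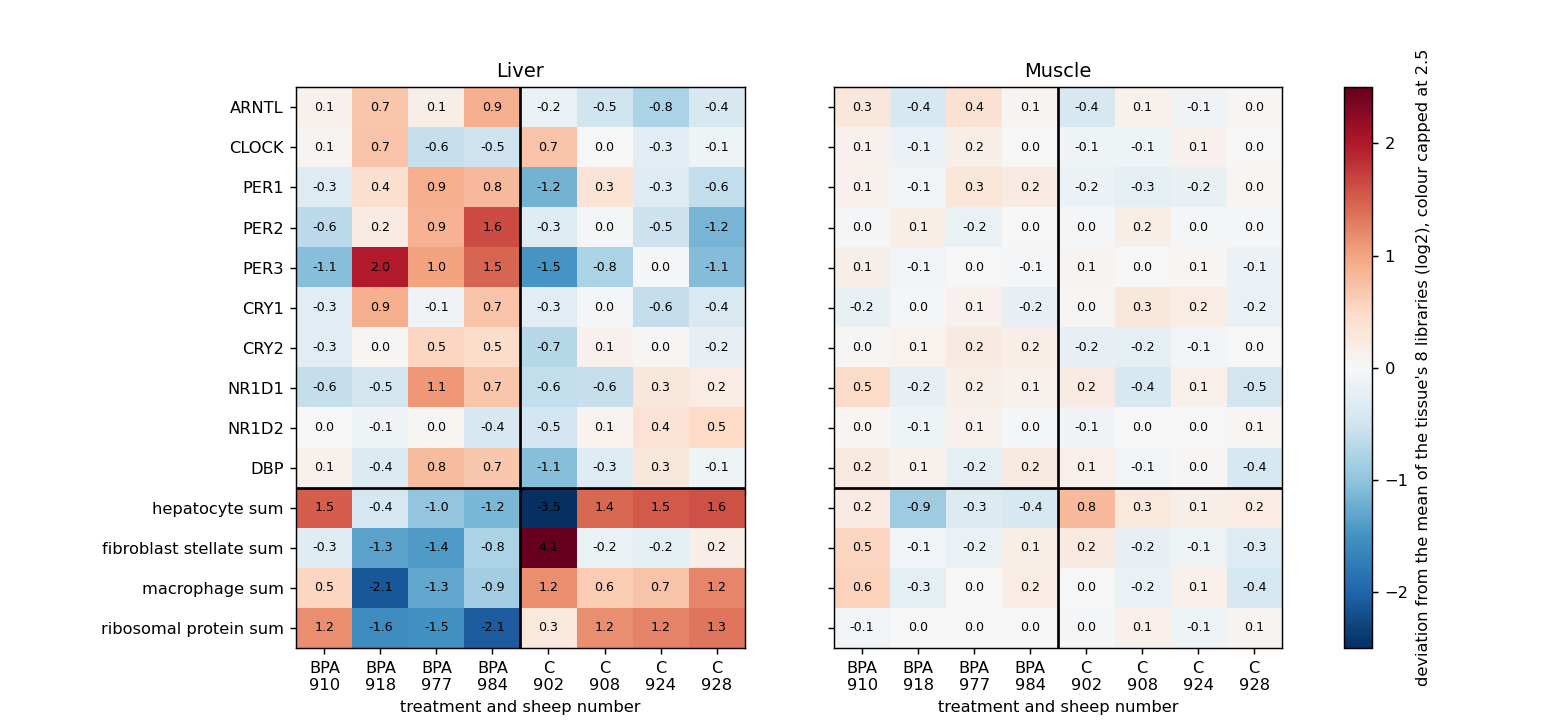
Deviation of each core clock gene, and of 4 summed marker lists below the black line, from the mean of the tissue's 8 libraries (log2, printed in each cell; colour capped at 2.5). Columns are libraries, BPA left of control. In liver, PER3 reaches 1.98 above the mean in the BPA library 918 and 1.48 below it in the control 902, while the ribosomal protein sums are low in the BPA libraries 918, 977 and 984. Muscle deviations of the clock genes stay within 0.48 of the mean.

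The liver values depended on single libraries. Without the BPA liver 910, limma called 3 of 10 members, ARNTL (1.05 log2, adjusted p 0.0377), PER2 (1.42, adjusted p 0.0481) and PER3 (2.32, adjusted p 0.0113), against 16.5% of all genes in that fit. Leaving out each of the 8 livers in turn gave adjusted p of 0.0377 to 0.518 for ARNTL, 0.0481 to 0.551 for PER2 and 0.0113 to 0.518 for PER3. Without the control liver 902, 0 of 10 were called (0% of all genes), with differences of 1.03 for ARNTL, 0.63 for PER1, 1.10 for PER2 and 1.47 log2 for PER3. CLOCK was then at 0.05 log2, and DBP at 0.36. Among members not called in any such fit, NR1D1 ran from 0.06 log2 (without 977) to 0.62 (without 910), CRY2 from 0.21 (without 902) to 0.53 (without 910), NR1D2 from -0.43 (without 902) to -0.10 (without 928) and DBP from 0.36 (without 902) to 0.83 (without 918). PER2 was lowest, at 0.66, without 984. With both 902 and 910 left out, ARNTL, PER1, PER2 and PER3 were called, 4 of 10 members against 43.1% of all genes. A fit of all 16 libraries called ARNTL and PER3 (14.7% of all genes). That fit leaves the liver differences unchanged but shares its error term with muscle, where both genes varied less. Sample quality weights called every member but CLOCK (9 of 10, against 61.1%), and depth class as a covariate called 0 (0%).

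Depth class and the hepatocyte and ribosomal protein sums split the livers alike. The macrophage, cholangiocyte and fibroblast sums did not follow depth class, the shallow control 902 ranking high in each (8404, 1257 and 116717). By depth the livers fell into a deeper class (910, 908, 924 and 928, at 17923942 reads or more) and a shallower class (918, 977, 984 and 902, at 10637935 or fewer). In the deeper class ARNTL was 406 in the BPA liver 910 and 217 to 283 in the control livers 908, 924 and 928, a difference of 0.68 log2. In the shallower class it was 414 to 703 in the BPA livers 918, 977 and 984 and 332 in the control 902 (0.76 log2). ARNTL was thus higher in BPA within both classes. For PER3 the difference was -0.43 log2 in the deeper class (268 in BPA 910, 265 to 552 in the controls) and 2.96 log2 in the shallower class (1118 to 2217 in BPA, 200 in the control 902). PER2 (-0.06 and 1.22 log2) and PER1 (-0.13 and 1.89 log2) likewise had differences below 0 in the deeper class and above 0 in the shallower. Of the 10 members, 4 were higher in BPA in the deeper class and 9 in the shallower. Each class holds a single library of 1 group, so these differences have no test. All 8 ribosomal protein, 8 fibroblast, 6 macrophage and 5 cholangiocyte genes tested had estimates below 0 in BPA livers, as did 6 of 7 hepatocyte genes, whereas all 3 muscle fibre genes tested were above 0, as were 49.3% of all genes. Of these markers 0 were called. Their part in the clock values was not tested. In whole tissue fewer cells of a type, less RNA per cell, and library or RNA quality cannot be told apart.

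**Figure D3:**
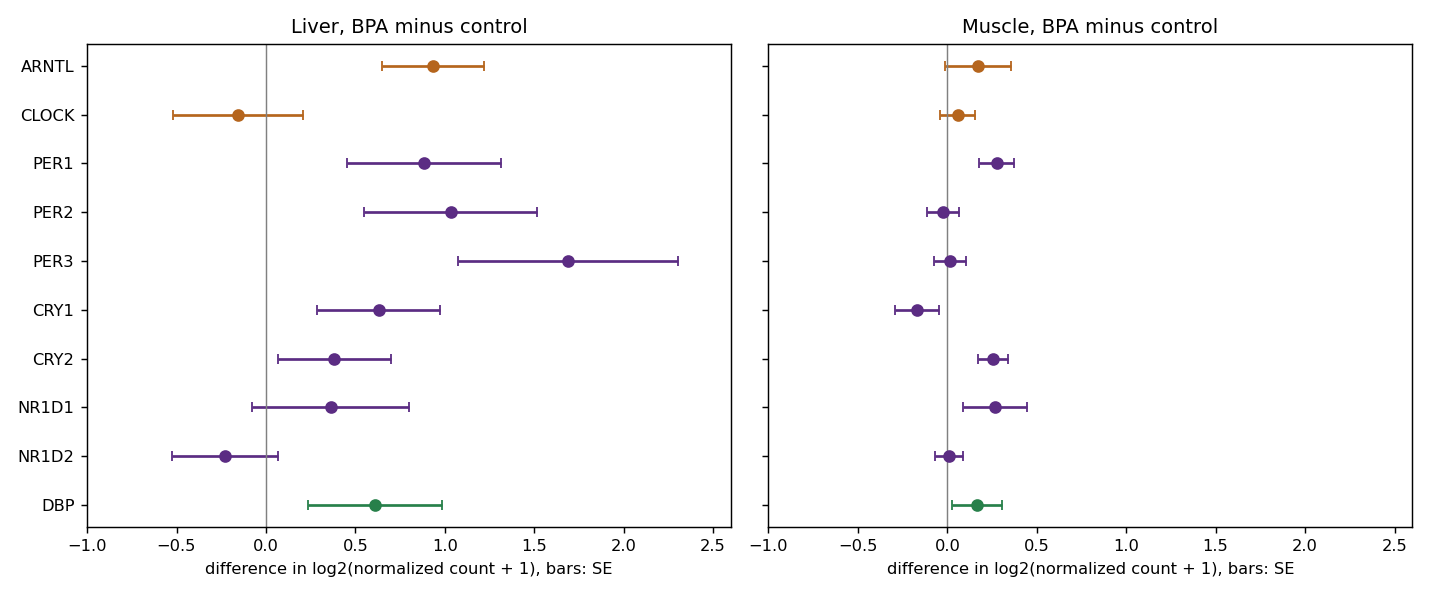
BPA minus control difference of each core clock gene in liver (left) and muscle (right), on the log2(normalized count + 1) scale with SE bars. Activators are orange, repressors purple and DBP green. Liver estimates run from -0.23 (NR1D2) to 1.69 (PER3) and muscle estimates from -0.17 (CRY1) to 0.27 (PER1), with no gene past the threshold.

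The activator and repressor arms were compared library by library, as the mean log2 of ARNTL and CLOCK against the mean log2 of the 7 repressors. In BPA livers the repressor mean was 9.05, 9.92, 10.11 and 10.26 in the libraries 910, 918, 977 and 984, against 8.77, 9.37, 9.39 and 9.11 in the control libraries 902, 908, 924 and 928. The activator mean was 8.75, 9.37, 8.45 and 8.85 in the same BPA livers, against 8.92, 8.40, 8.13 and 8.40 in the controls. The BPA livers 918, 977 and 984 thus exceeded every control in the repressor arm, while in the activator arm 918 alone did. The activator minus repressor value averaged -0.98 ± 0.66 in BPA livers and -0.69 ± 0.60 in control livers (SD, n = 4 each), and the groups overlapped. Taking ARNTL alone against NR1D1 and NR1D2, the BPA minus control difference of this value was 0.87, compared with -0.29 for the whole arms, so its direction depends on which members stand for the arms. Within the repressor arm the 3 PER genes had a median difference of 1.03 log2, the CRY genes 0.51 and the NR1D genes 0.07.

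**Figure D4:**
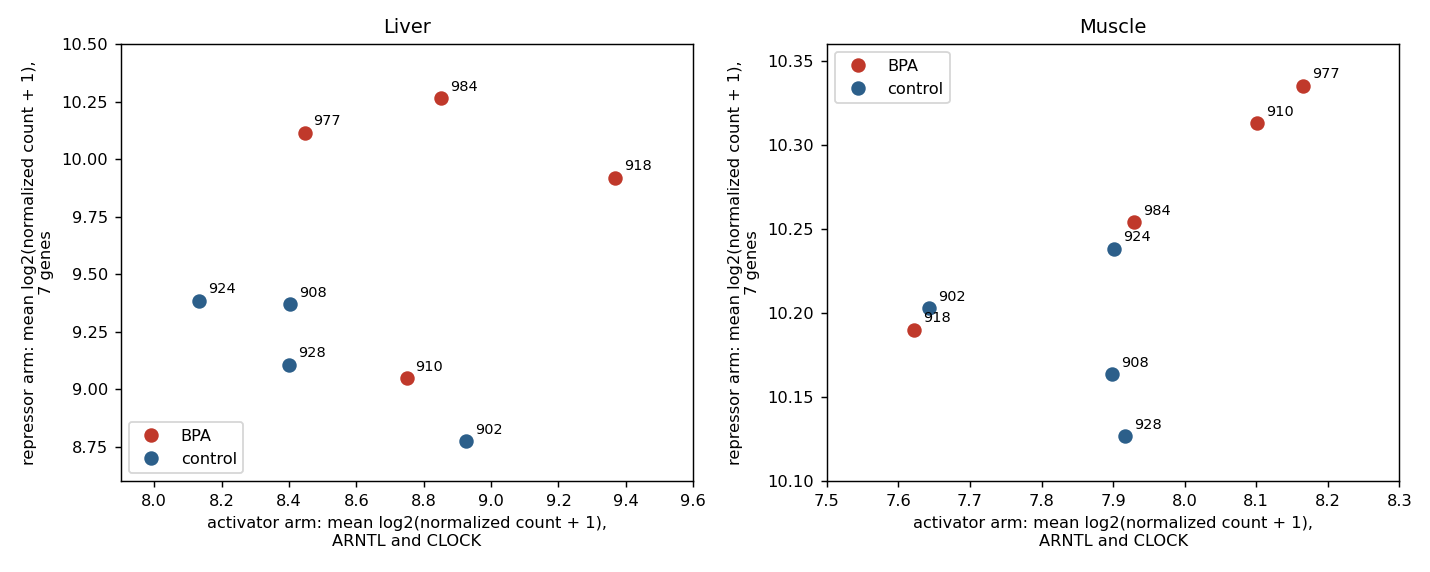
Mean log2(normalized count + 1) of the 7 repressors (vertical) against that of ARNTL and CLOCK (horizontal) in each library, labelled by sheep number, with BPA in red and control in blue; the axes cover different ranges in liver and muscle. In liver the BPA libraries 918, 977 and 984 lie above 9.9 on the repressor axis and all other livers below 9.4, whereas all muscle libraries lie between 10.13 and 10.34.

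In muscle the clock genes of BPA and control sheep were close, and PER1 and CRY2 had the smallest p. Limma called 0 of 10 members, against 0.129% of the 14706 genes tested. At an unadjusted p under 0.05 there were 2 of 10 (PER1 and CRY2), against 7.77% of all genes, and the BPA muscles lay above all controls for 1 of 10, against 2.05%. EdgeR and DESeq2 called 0 members each (0.129% and 0.891% of all genes), and each had 2 members at an unadjusted p under 0.05, against 8.02% and 7.52% of all genes. The median difference was 0.11 log2 over the members and 0.00 over all genes. Estimates were above 0 for 8 of 10 members as deposited (49.5% of all genes) and for 6 with TMM scaling, under which those of PER3 and NR1D2 turned below 0.

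CRY2 measured 2357, 2461, 2685 and 2609 in the BPA muscles 910, 918, 977 and 984, against 1992, 1954, 2205 and 2329 in the control muscles 902, 908, 924 and 928. All 4 BPA muscles lay above the highest control, a difference of 0.26 log2 (SE 0.09) or 1.19-fold, with an adjusted p of 0.459. Among cell markers in muscle, all 8 fibroblast genes and 5 of 6 macrophage genes had estimates above 0 with 0 called. All 7 hepatocyte genes had estimates below 0 with 1 called. Estimates were above 0 for 4 of 8 ribosomal protein, 2 of 6 muscle fibre and 0 of 2 cholangiocyte genes, with 0 called. Of all genes, 49.5% had estimates above 0 and 0.129% were called. Their part in the muscle clock values was not tested. PER1 measured 4368, 3851, 4952 and 4656 in the BPA muscles and 3629, 3385, 3539 and 4160 in the control muscles. The BPA muscle 918 lay below the control 928 and the other BPA muscles above all controls (0.27 log2, SE 0.10, adjusted p 0.498). The other repressors differed by no more than 0.27 log2. NR1D1 was 1382, 857, 1100 and 1060 in the BPA muscles and 1132, 748, 1084 and 717 in the control muscles (SE 0.18, adjusted p 0.770). CRY1 measured 264, 292, 327 and 260 in the BPA muscles and 309, 368, 344 and 267 in the control muscles, a difference of -0.17 log2 (SE 0.12, adjusted p 0.785).

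The remaining muscle members lay within the spread of the replicates. ARNTL averaged 128 ± 29.0 in BPA muscles and 112 ± 17.3 in control muscles (SD, n = 4 each), a difference of 0.17 log2 (SE 0.19, adjusted p 0.859). The difference of CLOCK was 0.06 log2 (SE 0.10), of PER2 -0.02 (SE 0.09), of PER3 0.01 (SE 0.09), of NR1D2 0.01 (SE 0.08) and of DBP 0.17 (SE 0.14), with adjusted p of 0.807 to 0.979. PER3 spanned 473 to 550 normalized counts in BPA muscles and 451 to 525 in control muscles, the highest of the 8 being 1.22 times the lowest, compared with 11.1 times in liver. Activator minus repressor values were -2.32 ± 0.18 in BPA muscles and -2.34 ± 0.15 in control muscles (SD, n = 4 each). The mean log2 of the 3 PER genes was 10.14 to 10.22 in BPA muscles and 10.08 to 10.11 in control muscles. Of these genes PER1 differed by 0.27 log2, against -0.02 for PER2 and 0.01 for PER3. The ranges of this mean were not tested or set against all genes.

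The question whether BPA effects differed between the tissues was addressed with the liver difference minus the muscle difference in a fit over all 16 libraries. Limma called 0 of 10 members, against 0% of the 13677 genes tested, and 3 of 10 (ARNTL, PER3 and CRY1) had an unadjusted p under 0.05, against 19.5% of all genes. EdgeR and DESeq2 also called 0 (0% and 1.08% of all genes), with 4 members each at an unadjusted p under 0.05 (21.4% and 21.8% of all genes). The difference was 1.67 log2 for PER3 (SE 0.67, adjusted p 0.220), 1.06 for PER2 (SE 0.51, adjusted p 0.263), 0.80 for CRY1 (SE 0.35, adjusted p 0.241) and 0.76 for ARNTL (SE 0.33, adjusted p 0.240). Without animal 910 PER2 (adjusted p 0.0291) and PER3 (adjusted p 0.00219) were called, 2 of 10 members against 22.1% of all genes. Sample quality weights called 6 (60.3%), and the animal as a replicate block called 0 (0%). In limma with that block 1 of 10 members (PER3) had an unadjusted p under 0.05, against 2296 of the 13677 genes. Order among animals also differed between tissues: ARNTL was highest in animal 984 in liver and in animal 977 in muscle, and PER2 was highest in animal 984 in liver and in the control 908 in muscle.

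Liver and muscle differed in the level of 5 members. Limma over the 16 libraries called 5 of 10, 2 higher and 3 lower in liver, against 71.4% of the 15995 genes tested (36.1% higher and 35.3% lower). Of the members 1 lay entirely higher in liver and 3 entirely lower, against 20.4% and 21.2% of all genes. The same 5 were called with the animal as a replicate block (69.3% of all genes), and sample quality weights called 8 (84.5%). With that block the limma adjusted p were larger than those of the unpaired fit given below. They were 3.98e-05 for ARNTL, 5.62e-07 for NR1D2, 3.88e-05 for CRY1, 0.000187 for CRY2 and 0.0388 for DBP. These comparisons between tissues rest on the deposited size factors, and whether those were set over both tissues together was not tested.

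ARNTL rose in liver to 404 ± 172 normalized counts, against 120 ± 23.6 in muscle (SD, n = 8 each), a difference of 1.66 log2 (SE 0.17, adjusted p 1.97e-07). Its lowest liver, at 217, lay above its highest muscle, at 154. DBP was also higher in liver, at 568 ± 224 against 359 ± 52.6 in muscle, a difference of 0.57 log2 (SE 0.20, adjusted p 0.0193), with tissues that overlapped. The DBP call was lost without any one of the animals 924, 928, 977 and 984, the adjusted p then being 0.0516 to 0.0859. NR1D2 was lower in liver, at 821 ± 192 against 3582 ± 181 in muscle (-2.16 log2, SE 0.14, adjusted p 9.72e-10). CRY1 was lower in liver, at 111 ± 46.5 against 304 ± 40.1 in muscle (-1.53 log2, SE 0.18, adjusted p 9.90e-07), and so was CRY2, at 1177 ± 316 against 2324 ± 265 (-1.02 log2, SE 0.15, adjusted p 1.57e-05). For these 3 repressors every liver lay below every muscle.

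The other 5 members did not pass between tissues. NR1D1 measured 743 ± 366 in liver and 1010 ± 223 in muscle (adjusted p 0.0576), and PER1 3248 ± 1520 in liver and 4068 ± 562 in muscle (adjusted p 0.0635). PER2 measured 1167 ± 847 in liver and 716 ± 51.7 in muscle (adjusted p 0.130), PER3 809 ± 743 in liver and 499 ± 31.5 in muscle (adjusted p 0.664), and CLOCK 458 ± 166 in liver and 477 ± 38.3 in muscle (adjusted p 0.542; SD, n = 8 each). PER2 was called by edgeR (adjusted p 0.0367) and DESeq2 (adjusted p 0.0409), each with 6 of 10 members against 72.7% and 71.3% of all genes. Leaving out 1 animal also moved calls: PER1 passed without 908 (adjusted p 0.0197), PER2 and PER3 without 910 (0.0158 and 0.0408), and NR1D1 without 928 or 977 (0.0464 and 0.0217). NR1D1 shares its locus with the thyroid receptor gene THRA, and CRY1 with MTERF2 and 2 unnamed loci, in the RefSeq gene table, and whether counting used strand is unknown here, so their reads may not be told apart.

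**Figure D5:**
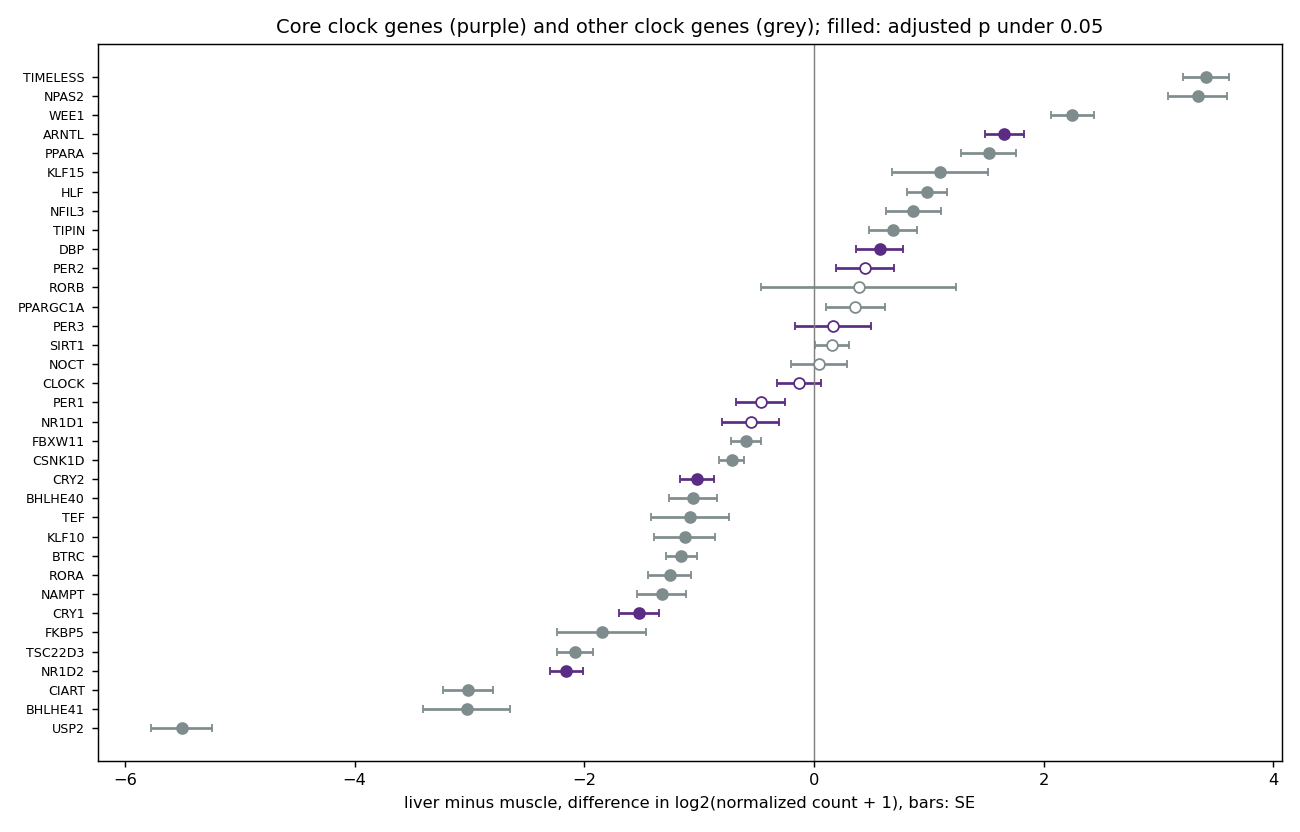
Liver minus muscle difference on the log2(normalized count + 1) scale, with SE bars, for the 10 core clock genes (purple) and 25 other clock and clock-output genes that were tested (grey); filled points have an adjusted p under 0.05. Core genes run from NR1D2 at -2.16 to ARNTL at 1.66, and the other genes from USP2 at -5.51 to TIMELESS at 3.41.

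Of 28 other clock and clock-output genes described, 26 were in the table. In liver 25 were tested for BPA and 0 were called (0% of all genes), with 2 at an unadjusted p under 0.05 (18.1% of all genes), 13 estimates above 0 (49.3%) and a median of 0.08 log2. The 3 with the smallest p were FBXW11, TIMELESS and PPARGC1A. FBXW11 is a ubiquitin ligase subunit that marks PER proteins for breakdown, TIMELESS a replication fork protein and PPARGC1A a coactivator of fasting metabolism. FBXW11 measured 297, 154, 175 and 202 in the BPA livers 910, 918, 977 and 984, against 360, 334, 347 and 380 in the control livers, and was the 1 gene of this list whose groups did not overlap, BPA lying lower as for 3.98% of all genes (-0.82 log2, SE 0.27, adjusted p 0.256). TIMELESS measured 323, 502, 732 and 733 in BPA livers against 371, 211, 309 and 283 in control livers (0.91 log2, SE 0.34, adjusted p 0.256). The difference of PPARGC1A was 0.94 log2 (SE 0.46, adjusted p 0.299). All 3, picked as the smallest p of the list, were called without the BPA liver 910, as were 16.5% of all genes. NPAS2, which can stand in for CLOCK, was 212, 221, 454 and 377 in BPA livers and 341, 188, 120 and 139 in control livers, without passing (0.72 log2, SE 0.40, adjusted p 0.340). It was added as the relative of CLOCK and not by its p, and KLF10 had a smaller p (-0.64 log2, SE 0.35, adjusted p 0.333).

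In muscle 24 of the other genes were tested, 0 were called by limma (0.129% of all genes) and 0 had an unadjusted p under 0.05 (7.77%), with 13 estimates above 0 (49.5%) and a median of 0.00 log2. The smallest p there belonged to TIPIN, the partner of TIMELESS (-0.39 log2, SE 0.19, adjusted p 0.662), NAMPT, an enzyme of NAD synthesis (-0.26, SE 0.14, adjusted p 0.711), and TSC22D3, a glucocorticoid-induced gene (0.24, SE 0.15, adjusted p 0.745). For the difference between tissues in BPA effect 0 of 24 were called (0% of all genes) and 4 had an unadjusted p under 0.05 (19.5%), FBXW11 (-0.77 log2, SE 0.26, adjusted p 0.202), TIPIN (0.97, SE 0.42, adjusted p 0.238) and TIMELESS (0.92, SE 0.40, adjusted p 0.240) having the smallest p.

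Between liver and muscle 21 of 25 other clock genes passed, 8 higher and 13 lower in liver, against 71.4% of all genes (36.1% higher and 35.3% lower). Those higher in liver were NPAS2, TIMELESS, WEE1, PPARA, HLF, NFIL3, TIPIN and KLF15, and those lower were USP2, CIART, BHLHE41, TSC22D3, BTRC, RORA, CSNK1D, NAMPT, BHLHE40, FKBP5, FBXW11, KLF10 and TEF. NPAS2 measured 120 to 454 normalized counts in liver and 14 to 30 in muscle (3.34 log2, SE 0.25, adjusted p 6.08e-09), whereas CLOCK did not pass. The repressor CIART measured 8 to 19 in liver and 89 to 156 in muscle (-3.02 log2, SE 0.22, adjusted p 2.77e-09). USP2, a deubiquitinase that acts on PER1 in mouse, measured 35 to 167 in liver and 2262 to 3868 in muscle (-5.51 log2, SE 0.26, adjusted p 1.67e-11). BHLHE41, an E-box repressor, measured 44 to 63 in 7 livers and 484 in the control 902, against 454 to 780 in muscle. The call of KLF15 (1.10 log2, SE 0.42, adjusted p 0.0281) was lost without any one of the animals 908, 910, 924, 928, 977 and 984 (adjusted p 0.0505 to 0.0882).

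The relation of ARNTL with its E-box targets was examined within each tissue over 8 libraries, as deviations from the group means of log2(normalized count + 1), with exact two-sided permutation within groups (576 arrangements) and BH adjustment over the 8 relations. In liver, Pearson's r was -0.43 with DBP (Spearman's rho -0.31, permutation p 0.286 and 0.455), -0.13 with NR1D1 (rho 0.07, permutation p 0.733 and 0.865), 0.47 with PER2 (rho 0.43, permutation p 0.375 and 0.403) and 0.33 with PER3 (rho 0.26, permutation p 0.651 and 0.665). In muscle r was -0.45 with DBP (rho -0.38, permutation p 0.267 and 0.344), 0.07 with NR1D1 (rho 0.31, permutation p 0.870 and 0.580), -0.45 with PER2 (rho -0.48, permutation p 0.335 and 0.342) and 0.16 with PER3 (rho 0.29, permutation p 0.684 and 0.566). No relation passed: adjusted permutation p were at least 0.750 for r and 0.760 for rho. Without the 2 livers farthest from the median of ARNTL (924 and 984) r was -0.78 with DBP, -0.37 with NR1D1, 0.08 with PER2 and 0.58 with PER3. Without the muscles 902 and 918 it was -0.59, -0.27, -0.08 and 0.15 with the same genes. Over the 8 libraries DBP was the 1 target with a negative r in both tissues, and without those 2 libraries NR1D1 was negative in both as well.

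Likeness of pattern was also described across all tested genes, as Pearson's r of log2(normalized count + 1) over the 8 libraries of a tissue. Group means were not removed here, so r also holds any difference between BPA and control. In liver the genes most like ARNTL were LOC101121522 (0.95), MYOM3 (0.95), ZC3H12D (0.95), IGSF5 (0.95) and MYO5C (0.95), and CRY1 ranked 95 among 15688 genes (0.88). Those most like DBP in liver were TOMM40L (0.98), MRM1 (0.98), PCMTD2 (0.97), NT5DC3 (0.97) and FUBP3 (0.97). HLF, a PAR bZIP relative of DBP, ranked 44 (0.93), and CLOCK was near the other end of the order (-0.89, rank 15593). In muscle the genes most like ARNTL were FMO2 (0.97), LOC105606929 (0.97), LOC105608590 (0.96), IGF1R (0.96) and IQGAP1 (0.96), with NR1D2 at rank 44 of 14705 (0.91). Those most like DBP were CNTROB (0.95), STK17B (0.94), STK10 (0.94), CTSZ (0.94) and IGSF3 (0.94). HLF, CRY1, CLOCK and NR1D2 were picked out here after their values were seen. In liver all such values share the depth and marker levels of the same 8 libraries.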

How the data were processed

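RNA was ribosome depleted before library preparation from low input, per the labels' protocols. Trimmomatic, FastQC and DESeq2 1.24.0 are named per the submitters' processing notes, and no source used here gives the aligner, counter, annotation or genome build. The values deposited by the authors are a signal, reads per gene over 1 size factor per library. Whole reads were recovered from each column's step (at least 99.99% of values whole within 0.1 read) for edgeR 4.0.16 and DESeq2 1.42.0.

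The main test was limma 3.58.1 (R 4.3.3) on log2(value + 1), which understates changes of low genes. It used eBayes with a trend on mean level. Genes needed a mean of at least 10, and p-values were adjusted across all tested genes by the Benjamini-Hochberg (BH) method. BPA was fitted in each tissue alone, and tissue and the difference between BPA effects over all 16 libraries. Fits over all 16 libraries share an error term between the tissues, although the members varied more in liver. Libraries are named by sheep number. The number pairs liver with muscle of 1 animal, per the labels, so pairing rests on the design. Across genes, deviations of paired libraries correlated by only -0.10 to 0.12. The highest correlation of a liver with another animal's muscle was 0.09 to 0.17. The own muscle was the highest for 1 of 8 animals, about as many as unrelated libraries would give. These correlations therefore cannot show whether the pairing is right. All 10 members matched the RefSeq gene table (ARS-UI_Ramb_v3.0), used for names and overlaps.

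The members and lists were chosen with earlier results of these data known. All 10 members are named, with those of the other clock genes past the threshold or, under 3, the 3 with the smallest p, and the 5 genes most like ARNTL and DBP. Fits were tested on simulated data. CSNK1E and FBXL21 were not analysed here, and 2 other listed genes are not reported here.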

Additional observations from a re-analysis of the deposited data

Results flagged for a closer look

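PER2 in control muscle was picked out because 1 library lay far from the other 3. It measured 795 normalized counts in the control muscle 908, against 703, 692 and 694 in the control muscles 902, 924 and 928. Of 40 gene and group combinations screened with Dixon's test, this was the 1 with a gap above the critical value, and chance gives about 1 in 20.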

How the results depend on the processing

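In liver the number of core clock genes called for BPA was 0 in limma, 2 with all 16 libraries in 1 fit, 9 under sample quality weights, 4 without the libraries 902 and 910 together, and 0 to 3 when each library was left out. In muscle it was 0 in every alternative run. Between tissues it was 5 (71.4% of all genes), with 8 under sample quality weights (84.5%) and 4 to 7 when each animal was left out. The contrast of BPA effects had 0, with 6 under sample quality weights and 0 to 2 when each animal was left out. The paired fit, with the animal as a replicate block, gave 5 members between tissues and 0 for the contrast of BPA effects, and changed no member's call. Over all genes, limma called 0 in liver, 19 in muscle, 11420 between tissues and 0 for the contrast of BPA effects. DESeq2 called 190 in liver, 131 in muscle and 148 for the contrast. Sample quality weights gave 9588 in liver, 377 in muscle, 13509 between tissues and 8245 for the contrast. The fit of all 16 libraries gave 2299 in liver and 0 in muscle. Leaving out each library or animal gave 0 to 2595 in liver, 11 to 31 in muscle, 10701 to 11694 between tissues and 0 to 3020 for the contrast. Without 902 and 910 together, 6594 were called in liver. EdgeR placed the median gene at 0.20 log2 between tissues, compared with 0.06 in limma. The causes were not tested.

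Values near 0 changed sign. In liver CLOCK was at 0.0034 log2 without 902 and 910 together and at -0.42 to 0.051 when each library was left out, and NR1D2 was at 0.015 with depth class as a covariate. In muscle PER3 was at -0.022 under sample quality weights and -0.014 with TMM scaling, and NR1D2 at -0.031 and -0.015. With each library left out, muscle PER2 was at -0.073 to 0.027, PER3 at -0.033 to 0.041 and NR1D2 at -0.024 to 0.047. With each animal left out, PER3 between tissues was at -0.037 to 0.51, and in the contrast of BPA effects CLOCK was at -0.54 to 0.018, CRY2 at -0.018 to 0.27 and NR1D1 at -0.20 to 0.47. The liver r of ARNTL was then -0.55 to 0.22 with NR1D1 and -0.22 to 0.61 with PER3. The muscle r was -0.59 to 0.42 with NR1D1, -0.86 to 0.11 with PER2 and -0.26 to 0.45 with PER3, and with TMM scaling -0.060 with NR1D1 and -0.14 with PER3. The liver arm difference of -0.29 became 0.87 with ARNTL alone against NR1D1 and NR1D2.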
